A study of Caenorhabditis elegans with 12 samples.

Results

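The nuclear hormone receptors of Caenorhabditis elegans are described here across wild type worms and mutants of the p38 kinase pathway, each on full and on diluted food. Members were the rows of the deposited count table whose WormBase symbol is nhr- followed by a number, without nhr-49 and nhr-62. Of 46748 rows, 267 met this rule, and 181 of them had 10 or more counts in at least 3 of the 12 libraries. The other 86 members reached a mean of at most 0.912 counts per 1000000 (CPM) and held 2356 of the family's 263798 counts. The test across all genes kept 180 members among 14611 genes.

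Nuclear hormone receptors are transcription factors with a zinc finger domain that binds DNA and a second domain that can bind a small lipophilic ligand, and ligand binding changes which coactivators and corepressors they recruit. C. elegans has far more of these genes than insects or mammals, most of them derived from an ancestor of the fatty acid-responsive receptor HNF4. The receptors that have been studied in the worm act in moulting, in the timing of development, in fat and vitamin B12 metabolism, in the dauer decision and in the response to toxins and pathogens.

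Poly(A) RNA came from whole adults at day 6 in 4 groups with 3 libraries each, labelled as biological replicates. N2, the wild type strain, and sek-1(km4), a mutant in which a deletion in every cell removes function of SEK-1, the MAP kinase kinase upstream of the p38 kinase PMK-1, were each fed ad libitum (AL, food at an optical density of 3) or under dietary restriction (DR, 0.1). All groups had been raised at 20 °C on Escherichia coli OP50 and then kept on plates with antibiotics and 100 mg/L of fluorodeoxyuridine, a drug that blocks the production of progeny. They spent the time from day 3 in liquid with growth-arrested OP50, 10 to 20 animals sharing a well of 1 ml, so a library stands for pooled animals. P-values measure the spread between these libraries. In RNA from whole animals, fewer cells of a type and less RNA per cell cannot be told apart.

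Libraries held 13673987 to 31675540 counts, of which annotated ribosomal RNA took 30.7% to 47.8%. N2_AL replicate 3 stood apart from every other library. Of the 49 described receptor genes with a mean of 5 CPM or more, 39 were lowest in it among the N2_AL libraries, and of the 48 with a mean under 1 CPM, 39 were highest in it. Counts of calls are therefore also given without it. The sek-1 gene itself had 16.4 to 22.4 CPM in the mutant libraries and 20.8 to 28.5 CPM in N2, with 3.71 CPM in N2_AL replicate 3. Such a count over a whole gene does not show whether the deleted stretch was read, so it does not check the genotype labels.

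The family's level was higher in the mutant than in N2. Summed over all 267 genes, N2_AL replicates 1 to 3 had 802, 774 and 580 CPM, and the N2_DR replicates had 796, 797 and 777 CPM. The sek-1(km4) libraries had 973, 1005 and 1041 CPM on AL and 1147, 1125 and 1143 CPM on DR. Every mutant library lay above every N2 library, and the mutant DR libraries lay above the mutant AL libraries. The median tested receptor had a level of 0.70 ± 0.10 log2 CPM (SD, n = 3) on AL and 0.75 ± 0.03 on DR in N2, and of 1.24 ± 0.20 and 1.52 ± 0.03 in the mutant. The median of all tested genes was also higher in the mutant libraries, at 2.83 to 2.97 log2 CPM against 2.49 to 2.57 in N2.

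**Figure D1:**
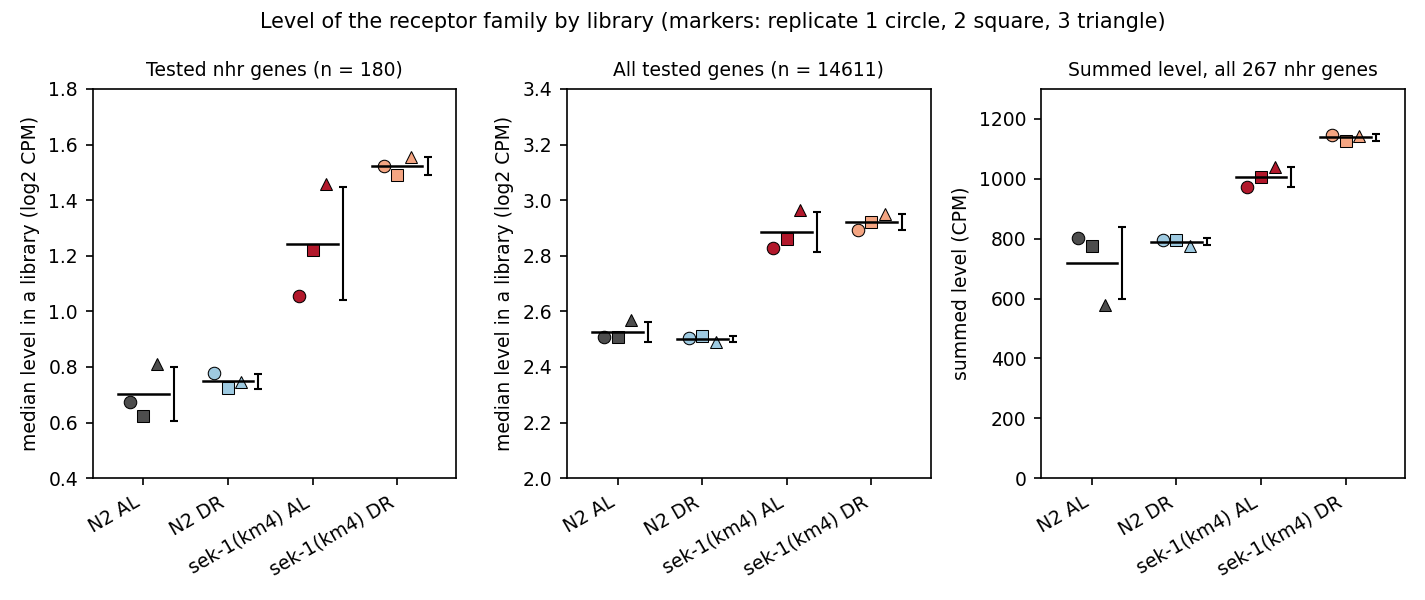
Level of the family in each library. Left and middle, the median level of the 180 tested receptor genes and of all 14611 tested genes in log2 CPM; right, the summed level of all 267 receptor genes in CPM. Points are libraries, horizontal bars group means and error bars the SD of 3 libraries; the 6 mutant libraries lie above the 6 N2 libraries in each panel, and the median axes do not start at 0.

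Most members were scarce. Among the 181 described genes the mean over the 12 libraries ranged from 0.217 to 60.1 CPM with a median of 2.15 CPM, and 49 genes reached 5 CPM. Per kilobase of exon, the scale on which genes of different length can be compared, the range was 0.182 to 21.5 CPM per kb and the median 1.54. The highest was nhr-86 at 21.5 CPM per kb, a receptor of the intestine that drives immune genes. It was followed by the moulting receptor nhr-23 at 16.6 CPM per kb, by nhr-46 at 14.9 and by nhr-274 at 12.7. The remaining members of the 10 highest were nhr-66 at 12.4, nhr-20 and nhr-2 at 10.9 each, nhr-154 at 10.8, nhr-71 at 10.4 and nhr-10 at 10.1 CPM per kb. By the Ensembl 115 annotation of WBcel235, 167 of the 267 genes lie on chromosome V, 33 on IV, 23 on X, 21 on I, 15 on II and 8 on III. On chromosome V 116 members were described, and on chromosome I 7 were.

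More receptor genes were higher in sek-1(km4) than in N2 on either diet, and few were lower. On AL 40 of 180 tested receptors were higher in the mutant and 2 were lower (edgeR quasi-likelihood test, adjusted p under 0.05 over all genes). That is 22.2% of the receptors, where 12.7% of all tested genes were higher and 4.72% were lower. On DR 84 were higher and 3 lower, 46.7% of the receptors, against 24.9% of all genes higher and 14.6% lower. Without N2_AL replicate 3 the counts were 62 higher and 5 lower of 184 on AL (all genes, 23.3% and 15.5%) and 108 higher and 7 lower on DR (36.4% and 28.1%). A fit of only the libraries compared gave 16 higher and 1 lower of 166 on AL (all genes, 7.23% and 1.6%) and 98 higher and 6 lower of 172 on DR (35.3% and 28.8%).

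The median log2 fold change of the receptors was 0.49 on AL and 0.79 on DR, beside 0.02 and 0.17 for all genes. On AL 153 receptors had a log2 fold change above 0 and on DR 160 did, where 51.2% and 56.1% of all genes did. The middle 50% of receptors ran from 0.14 to 0.99 on AL and from 0.33 to 1.34 on DR. All 3 mutant libraries lay above all 3 N2 libraries for 83 receptors on AL (46.1%; 21.8% of all genes) and for 121 on DR (67.2%; 38.9%). They lay below for 4 receptors on AL and 8 on DR, where 13.8% and 29.9% of all genes did. Of the 180 tested members 24 had 10 counts in fewer than 3 N2 libraries, so the N2 libraries alone did not give them 10 counts in 3 libraries. The same held for 4 members in the mutant libraries. Among the 24, 13 were called higher on DR and 5 on AL. Those calls stay in the counts above, although a scarce gene enters the test more readily when it is high in the mutant.

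The gap to all genes was widest at the higher levels. Among genes with a mean of 5 CPM or more, 21 of 49 receptors were higher in the mutant on DR, 42.9% beside 14.7% of all genes of that level, and the median log2 fold changes of the receptors and of the other genes were 0.63 and −0.28. On AL this class held 19 higher of 49, 38.8% beside 10.2% of all genes. From 1 to 5 CPM, 46 of 84 receptors were higher on DR (54.8% beside 41.5%) and 17 on AL (20.2% beside 21.9%). Under 1 CPM the shares of receptors and of all genes were 36.2% and 31.9% on DR and 8.51% and 9.03% on AL, and the receptors' median on DR, 0.94, was below that of the other genes, 1.16. On chromosome V 53 of 115 receptors were higher on DR, beside 27% of all its genes, and elsewhere 31 of 65, beside 24.3%. On the X chromosome 11 of 16 receptors were higher on DR, where 40.5% of all X genes were.

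**Figure D2:**
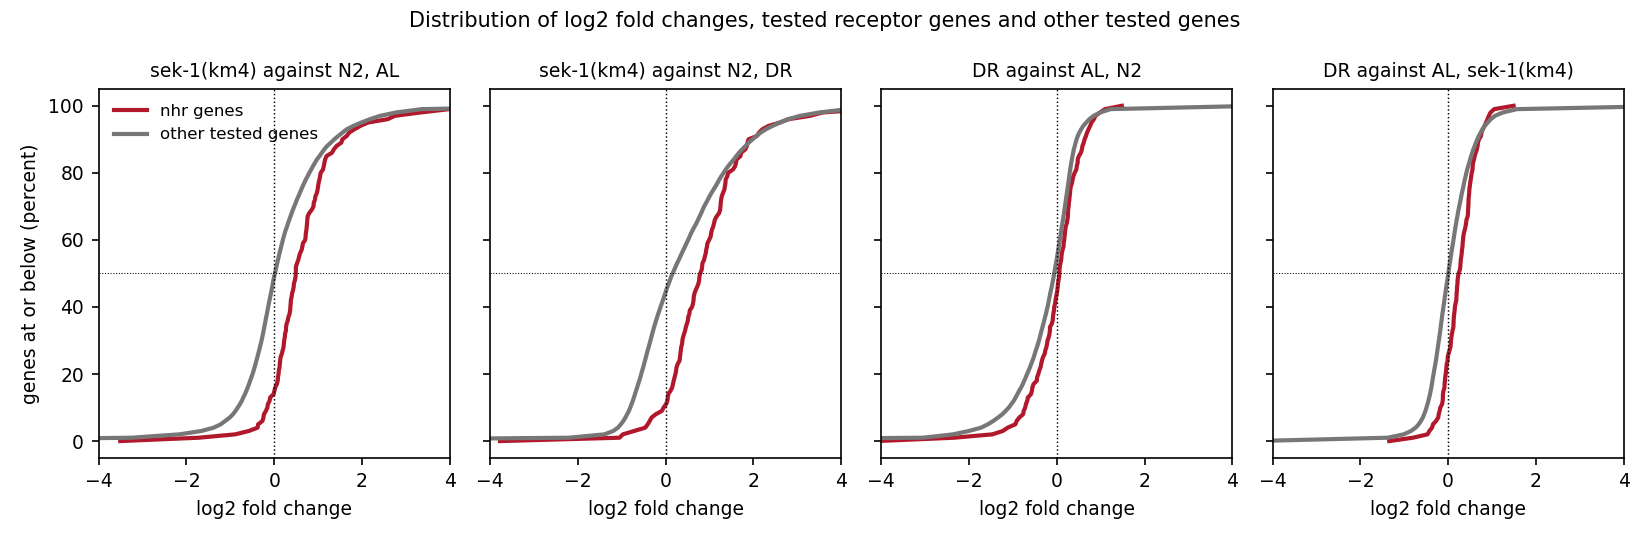
Cumulative distribution of log2 fold changes of the 180 tested receptor genes (red) and of the other tested genes (grey), for genotype on each diet and for diet in each genotype. The x axis is the log2 fold change, cut at 4 either way, and the y axis the percent of genes at or below it. The red curves lie to the right of the grey at the median, by the most in the genotype panels, where the receptor medians are 0.49 and 0.79.

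The genotype contrasts on AL and on DR share no library, so their calls can be set side by side. Of the 40 receptors higher on AL, 36 were also higher on DR, 90% of the AL calls and 42.9% of the DR calls. Over all genes, 93% of the AL calls were also made on DR. The 4 receptors higher on AL alone were nhr-61, nhr-68, nhr-94 and nhr-145, and their DR log2 fold changes lay between 0.33 and 0.66. The sign of the log2 fold change was the same on both diets for 155 receptors, 86.1% beside 79.7% of all genes. The genotype by diet interaction was called for 0 receptors and 0 genes by edgeR, with 17 receptors at an unadjusted p under 0.05 (DESeq2 called 0 receptors, and limma voom with sample weights called 15, 8.33% of the receptors beside 9.4% of all genes).

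Markers of some tissues differed by genotype too. Of all genes 12.7% were higher and 4.72% lower in the mutant on AL, and 24.9% and 14.6% on DR. Without N2_AL replicate 3, 15.5% of all genes were lower on AL and 28.1% on DR. Summed germ line markers were 3014 to 5266 CPM in N2_AL and 4539 to 5185 in N2_DR, and 2662 to 4017 in sek1_AL and 2130 to 2950 in sek1_DR, with 6 of 9 lower in the mutant on DR and 1 on AL (9 and 8 without N2_AL replicate 3). Hypodermis markers summed to 96.3 to 169 CPM in N2_AL, 138 to 185 in N2_DR, 278 to 357 in sek1_AL and 201 to 286 in sek1_DR, with 6 of 8 higher in the mutant on AL and 5 on DR. Embryo markers were at 14.9 to 20.0 CPM in the N2 libraries and at 27.01 to 35.5 in the mutant, with 4 of 8 tested higher on DR. Neuron markers were higher for 4 of 10 on each diet, and intestine markers for 4 of 7 on AL and 3 on DR (1 was lower on DR). Body wall muscle markers were higher for 0 of 8 on AL and for 2 on DR, the latter near the share of all genes. Sperm markers summed to at most 4.83 CPM, in N2_AL replicate 3, and none of 8 was tested. The part of these tissues in the receptor results was not tested.

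Among the receptors that insects or vertebrates share, nhr-25, nhr-85 and nhr-91 were higher in the mutant on both diets. The list held 10 genes, of which 9 were tested, and 3 were higher and 0 lower on AL, while 3 were higher and 1 lower on DR (4 and 1, and 6 and 1, without N2_AL replicate 3). For this and the other receptor lists, 22.2% of all tested receptors were higher on AL and 46.7% on DR (all genes, 12.7% and 24.9%). nhr-25 (chromosome X, 13008493 to 13013964) is the orthologue of Ftz-F1 in flies and of SF-1 and LRH-1 in mammals, and acts in the epidermis, in moulting and in the gonad. In N2 its level was 3.96, 3.54 and 1.86 CPM on AL and 7.04, 5.65 and 5.01 CPM on DR. In the mutant it was 15.05, 14.8 and 17.8 CPM on AL and 17.9, 17.5 and 18.9 CPM on DR. No mutant library overlapped an N2 library, and within N2 the DR libraries were above the AL libraries. The log2 fold change by genotype was 2.32 ± 0.25 SE on AL (edgeR adjusted p = 0.000109) and 1.62 ± 0.24 on DR (adjusted p = 0.000582), and that of diet in N2 did not pass (0.89, adjusted p = 0.132).

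nhr-91 (chromosome X, 15309369 to 15314899) is the orthologue of the germ cell nuclear factor of mammals. In N2 it had 2.64, 1.88 and 1.39 CPM on AL and 2.51, 3.44 and 2.94 CPM on DR. The mutant libraries had 8.56, 8.41 and 9.61 CPM on AL and 16.1, 15.1 and 11.9 CPM on DR. All mutant libraries were above all N2 libraries, and the mutant DR libraries were above the mutant AL libraries. By genotype the log2 fold change was 2.13 ± 0.24 on AL (edgeR adjusted p = 0.000144) and 2.28 ± 0.24 on DR (adjusted p = 5.82e-05). nhr-85, the orthologue of the Rev-erb receptors and of E75 in flies and a regulator of developmental timing, showed 0.186 to 1.15 CPM in N2_AL, 0.725 to 1.45 in N2_DR, 4.97 to 5.76 in sek1_AL and 3.88 to 6.35 in sek1_DR. These groups did not overlap by genotype, with log2 fold changes of 2.72 ± 0.42 on AL and 2.29 ± 0.40 on DR (edgeR adjusted p = 0.00101 and 0.00143). Its exons overlap those of npr-14 on the opposite strand over 835 nt, so its counts are uncertain, since the strand setting of the counting is not given in the sources used here.

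nhr-6, the worm's NR4A receptor, needed for the spermatheca and ovulation, went the other way. Its level was 4.80, 5.14 and 2.69 CPM in N2_AL and 8.63, 8.70 and 8.95 CPM in N2_DR. Mutant levels were 3.35, 3.88 and 3.48 CPM on AL and 4.14, 4.30 and 4.58 CPM on DR. The N2_DR libraries were above all other libraries, and on AL the genotypes overlapped through N2_AL replicate 3. nhr-6 was higher on DR in N2 (log2 fold change 1.04 ± 0.22, edgeR adjusted p = 0.0484) and lower in the mutant on DR (−1.01 ± 0.22, adjusted p = 0.00408). The diet call in N2 did not hold in every fit with 1 library left out, nor with only the N2 libraries (edgeR adjusted p = 0.417). The change of nhr-6 by diet in the mutant was 0.28 ± 0.22 (adjusted p = 0.626), and the difference between the diet effects, the interaction, did not pass.

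The other conserved receptors did not pass on either diet in the 12-library fit. nhr-23, the orthologue of ROR and of DHR3 in flies and a driver of the moulting cycle, had 42.5 to 44.8 CPM in N2_DR and 35.2 to 53.6 in sek1_DR, with a log2 fold change of 0.00 ± 0.33 (edgeR adjusted p = 0.997). In N2_AL it had 46.8, 45.0 and 14.8 CPM, the last in replicate 3. nhr-41, related to the TR2 and TR4 receptors, and nhr-48, a relative of the vitamin D and xenobiotic receptors, had no overlap between genotypes on either diet, with log2 fold changes on DR of 1.11 (adjusted p = 0.0585) and 0.55 (adjusted p = 0.217). Without N2_AL replicate 3 both passed on DR (adjusted p = 0.000193 and 0.00238). nhr-8, of the same subfamily as nhr-48 and known for cholesterol balance and toxin resistance, overlapped between genotypes on both diets (log2 fold change 0.35 on each). nhr-67, the worm's tailless, which acts in the anchor cell, had 1.88, 2.17 and 9.75 CPM in N2_AL, and its DR log2 fold change in N2 was 0.15 with replicate 3 and 1.29 without it (adjusted p = 0.882 and 0.0123).

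**Figure D3:**
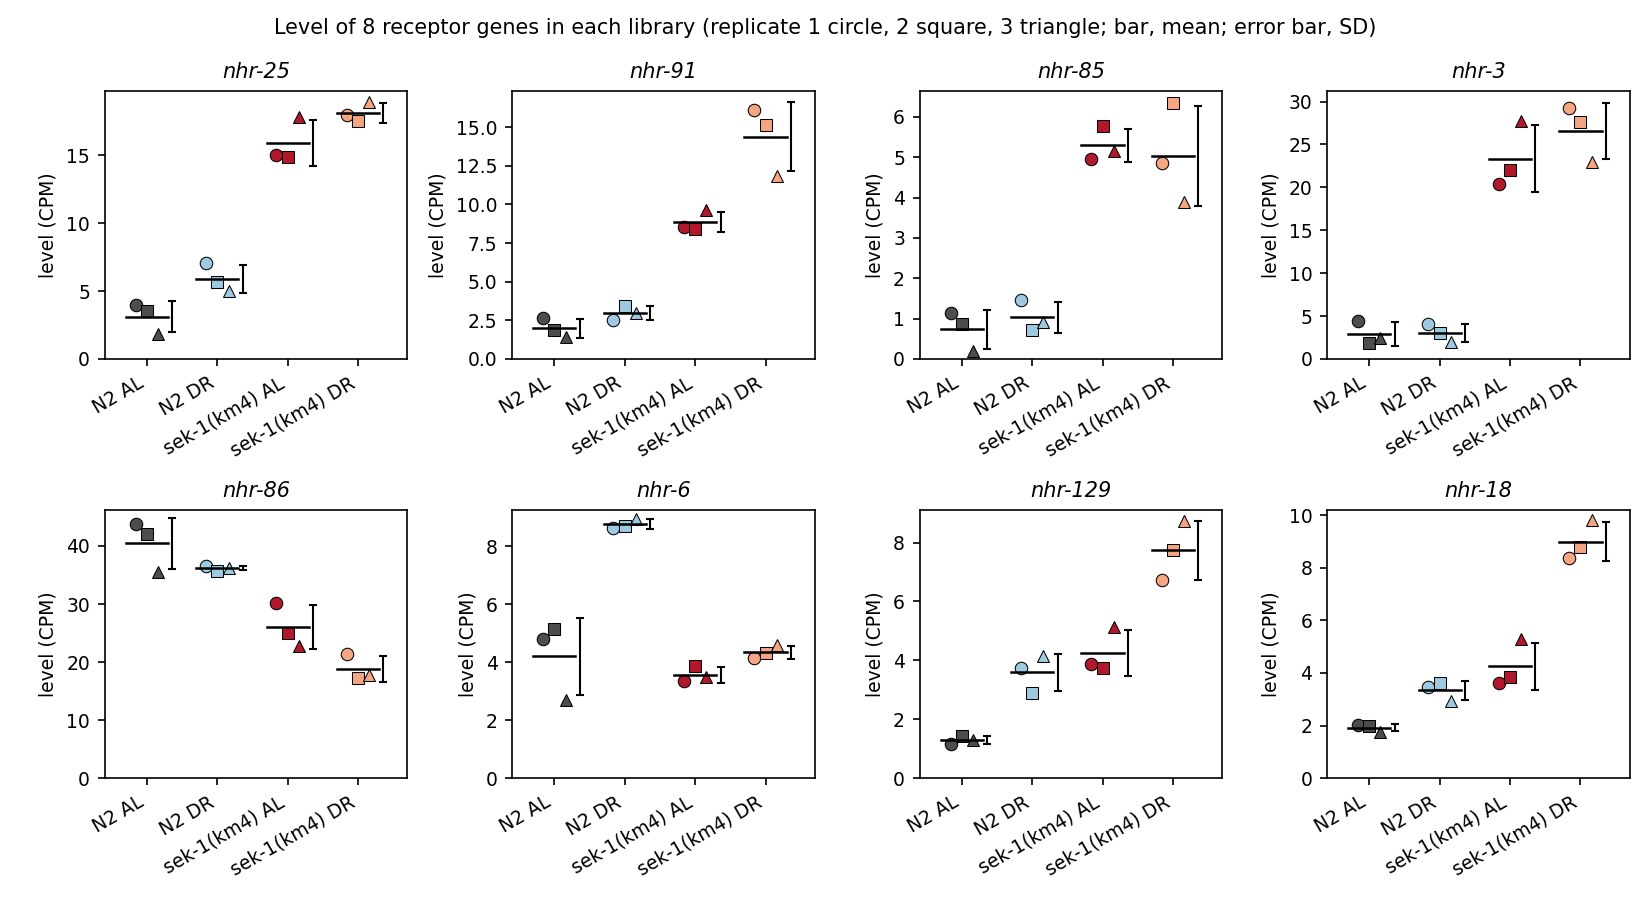
Level of 8 receptor genes in CPM in each library, by group. Circles, squares and triangles are replicates 1, 2 and 3, horizontal bars group means and error bars the SD of 3 libraries. nhr-25, nhr-91, nhr-85 and nhr-3 are higher in all mutant libraries than in any N2 library, nhr-86 is lower, nhr-6 is highest in N2_DR, and nhr-129 and nhr-18 are higher on DR in both genotypes.

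Of 7 receptors listed for lipid metabolism, partnership with NHR-49 or other metabolic regulation, nhr-31 and nhr-69 were higher in the mutant on both diets and 0 were lower. nhr-31, an HNF4-related receptor that controls proton pump genes of the excretory cell, had 3.53 to 4.03 CPM in N2_AL and 2.35 to 4.80 in N2_DR. Mutant libraries showed 8.18, 10.8 and 9.27 CPM on AL and 12.8, 13.3 and 12.4 CPM on DR. The genotypes did not overlap, with log2 fold changes of 1.32 ± 0.25 on AL and 1.71 ± 0.25 on DR (edgeR adjusted p = 0.00373 and 0.000466). nhr-69, another HNF4-related receptor, had 2.88 to 3.83 CPM in N2_AL, 4.16 to 5.59 in N2_DR, 7.08 to 9.53 in sek1_AL and 8.53 to 8.89 in sek1_DR. It was higher in the mutant without overlap, by 1.17 ± 0.20 on AL and 0.82 ± 0.19 on DR on the log2 scale (edgeR adjusted p = 0.00169 and 0.0065).

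nhr-66, a partner of NHR-49 in lipid gene repression, had the highest CPM of the family, a mean of 60.1. It had 89.1, 87.6 and 15.1 CPM in N2_AL, 67.7 to 77.7 in N2_DR, 48.5 to 65.4 in sek1_AL and 38.8 to 52.0 in sek1_DR. Replicate 3 of N2_AL was the lowest of all 12 libraries, and without it the mutant libraries lay below the N2 libraries on each diet. With all libraries the log2 fold change on DR was −0.74 (edgeR adjusted p = 0.223), and without that library also −0.74 (adjusted p = 0.000222). The other 4 of the list passed on neither diet. On DR the log2 fold changes were 0.51 for nhr-80, which drives fatty acid desaturases, 0.31 for nhr-64, 0.12 for nhr-76 and −0.17 for nhr-13, with adjusted p from 0.156 to 0.808.

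Of the 3 receptors of the response to low vitamin B12, nhr-68 passed on AL, nhr-114 passed on DR and nhr-10 passed on neither, and the interaction was called for none of them. nhr-10 and nhr-68 together switch on the propionate shunt, and nhr-114 acts on the methionine cycle. nhr-68 had 4.10, 4.57 and 3.43 CPM in N2_AL and 5.81, 6.30 and 6.69 in sek1_AL, without overlap (log2 fold change 0.63 ± 0.19, edgeR adjusted p = 0.0405). On DR its genotypes overlapped (0.33 ± 0.19, adjusted p = 0.176). nhr-114 had 2.42, 1.72 and 0.955 CPM in N2_DR and 3.35, 3.16 and 2.53 in sek1_DR, without overlap (0.83 ± 0.30, adjusted p = 0.0456). On AL it did not pass (0.49 ± 0.30, adjusted p = 0.272). The AL call of nhr-68 and the DR call of nhr-114 did not hold in every fit with 1 library left out. nhr-10 overlapped between genotypes on both diets, with log2 fold changes of 0.28 on AL and 0.21 on DR.

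Of 5 receptors of toxin, iron, hypoxia and pathogen responses, nhr-86 was lower in the mutant on both diets and 0 were higher. nhr-86 (chromosome V, 2061106 to 2066850) activates p38-pathway-linked immune genes and senses a bacterial phenazine. It had 43.8, 42.0 and 35.5 CPM in N2_AL and 36.6, 35.8 and 36.3 CPM in N2_DR. Its level in the mutant was 30.1, 25.1 and 22.7 CPM on AL and 21.4, 17.3 and 17.7 CPM on DR. All mutant libraries were below all N2 libraries, and the mutant DR libraries were the lowest. By genotype the log2 fold change was −0.64 ± 0.16 on AL (edgeR adjusted p = 0.0187) and −0.95 ± 0.16 on DR (adjusted p = 0.00125). The DR call held whichever library was left out, and the AL call did not.

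nhr-14, a regulator of iron uptake, had 2.51 to 7.31 CPM in N2_DR and 9.93 to 12.3 CPM in sek1_DR. These libraries did not overlap, yet the log2 fold change of 1.24 ± 0.46 missed the threshold (edgeR adjusted p = 0.0501), and it passed without N2_AL replicate 3 (adjusted p = 0.0013). nhr-57, a target of the hypoxia factor HIF-1, and nhr-176, which controls a cytochrome P450 in the response to thiabendazole, had log2 fold changes on DR of −0.34 and 0.88 (adjusted p = 0.381 and 0.157).

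**Figure D4:**
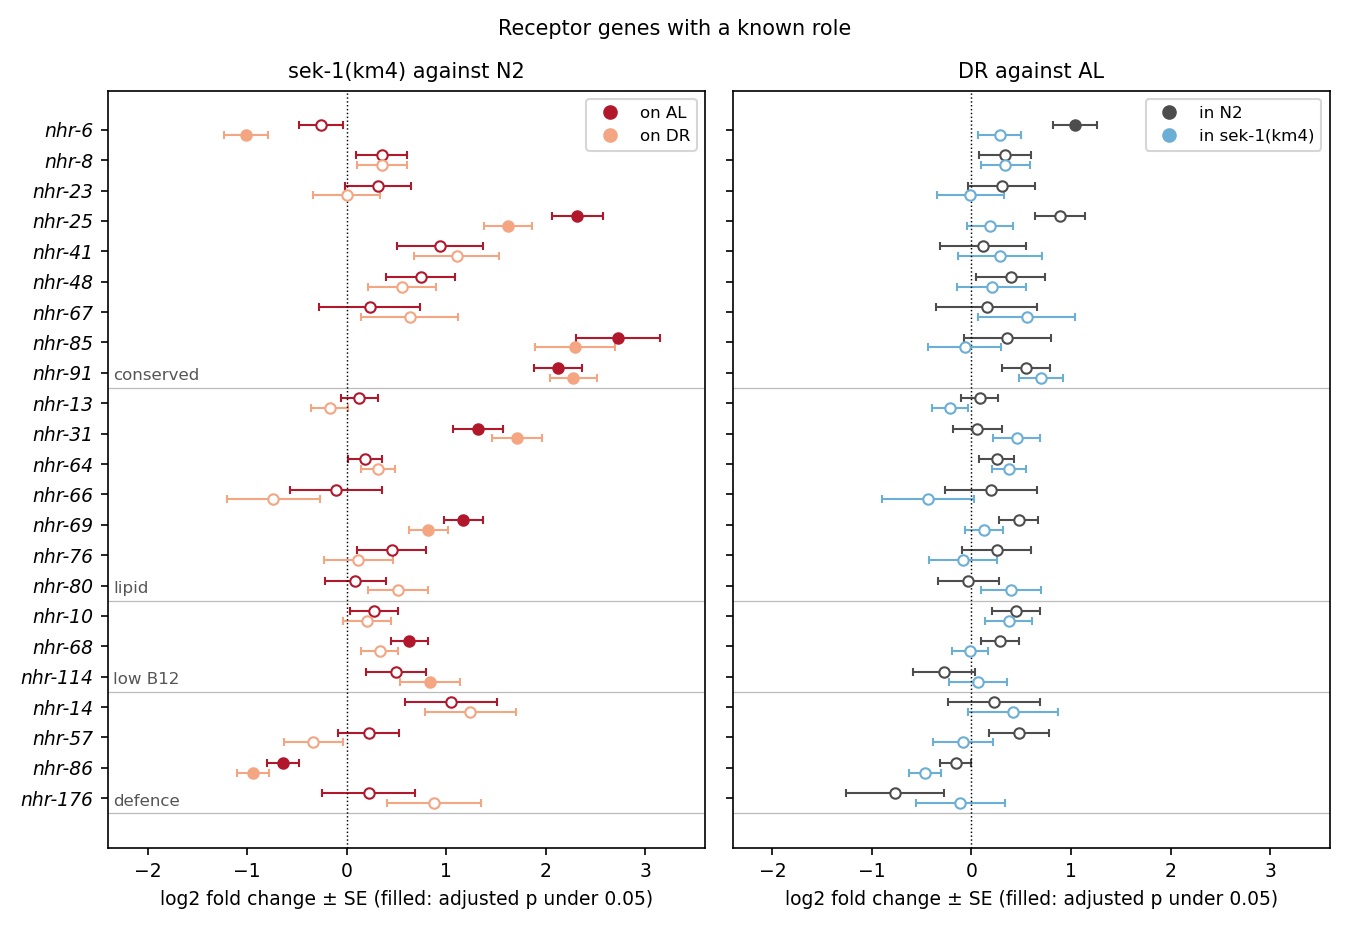
Log2 fold change ± SE of the tested receptor genes with a known role, in the 12-library fit. Left, sek-1(km4) against N2 on AL and on DR; right, DR against AL in each genotype. Filled points have an edgeR adjusted p under 0.05; nhr-8 counts among the conserved and the defence genes and is drawn once. nhr-25, nhr-85, nhr-91, nhr-31 and nhr-69 are filled above 0 on both diets and nhr-86 below 0.

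Genes that work with these receptors were read from lists as well, where 12.7% of all genes were higher on AL and 24.9% on DR. Of 3 tested nuclear receptors with other names, daf-12, the receptor of dafachronic acid, was higher in the mutant on AL (log2 fold change 1.84 ± 0.38) and on DR (1.70 ± 0.37), with edgeR adjusted p of 0.00615 and 0.00479. fax-1 was higher on DR (2.57) and sex-1 passed on neither diet. fax-1 had 0.0382 to 0.119 CPM in N2_DR and 0.359 to 0.540 in sek1_DR, so its rise rests on few counts. Of 5 coregulators, din-1, the corepressor of DAF-12, was higher on DR (0.86, adjusted p = 0.00464) and 0 were called on AL. Of 6 tested genes of dafachronic acid synthesis and sterol transport, dhs-16 was higher on AL and daf-36 and ncr-1 on DR. daf-36 too rests on few counts, with 0.0398 to 0.153 CPM in N2_DR and 0.216 to 0.828 in sek1_DR.

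Among 14 tested genes reported as targets of the metabolic and immune receptors, 1 was higher and 2 lower on AL, and 1 was higher and 6 lower on DR. Of all genes 12.7% were higher and 4.72% lower on AL, and 24.9% and 14.6% on DR. Without N2_AL replicate 3, 2 were higher on each diet, and 6 were lower on AL and 7 on DR (all genes, 15.5% and 28.1% lower). The immune effector irg-5, a reported target of NHR-86, had 2.51 to 3.65 CPM in N2_AL and 1.37 to 1.79 in N2_DR, and at most 0.115 CPM in any mutant library. Its log2 fold changes were −4.79 ± 0.45 on AL and −5.12 ± 0.52 on DR (edgeR adjusted p = 3.76e-05 and 5.49e-05). irg-4, another, was lower in the mutant on AL (−2.75) and not on DR (0.84, adjusted p = 0.248). It had 0.742 to 1.485 CPM in N2_AL but only 0.0880 to 0.159 in N2_DR, beside 0.144 to 0.323 in sek1_DR. A fall by genotype on DR could therefore hardly be seen. The propionate shunt genes acdh-1, ech-6, hach-1 and hphd-1, targets of NHR-10 and NHR-68, were lower on DR, while alh-8, the remaining shunt gene of the list, did not pass (0.15, edgeR adjusted p = 0.756). acdh-1 had 52.7 to 81.4 CPM in N2_DR and 3.50 to 15.3 CPM in sek1_DR (−2.79 ± 0.42, adjusted p = 0.000637), while ech-6, hach-1 and hphd-1 fell by 0.54 to 0.91 on the log2 scale. In the methionine cycle mtrr-1 was lower on DR (−0.59), metr-1 did not pass there (−0.71, edgeR adjusted p = 0.0962, and 0.00122 without N2_AL replicate 3) and sams-1 was higher on both diets (2.18 and 1.79). Both p38 function and NHR-86 are known to set irg-4 and irg-5, and which of them moved the values of these 2 genes was not tested.

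The largest rises among receptors with a mean of 1 CPM or more were those of nhr-270 and nhr-3. nhr-3 (chromosome X, 14558504 to 14561432) had 4.45, 1.83 and 2.41 CPM in N2_AL and 4.05, 3.05 and 1.95 CPM in N2_DR. In the mutant it had 20.3, 22.02 and 27.7 CPM on AL and 29.3, 27.6 and 22.95 CPM on DR. The lowest mutant library was above the highest N2 library, and diet groups overlapped within each genotype. Its log2 fold changes were 2.98 ± 0.34 on AL and 3.14 ± 0.34 on DR (edgeR adjusted p = 0.000164 and 8.66e-05). nhr-270 (chromosome V, 802546 to 804741) had 0.209 to 0.464 CPM in N2_AL, 0.308 to 0.478 in N2_DR, 3.81 to 6.69 in sek1_AL and 4.59 to 6.68 in sek1_DR. Again no library overlapped across genotypes, and the log2 fold changes were 3.92 ± 0.37 and 3.80 ± 0.35 (edgeR adjusted p = 3.88e-05 and 2.92e-05).

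nhr-43 had 0.742 to 4.42 CPM in N2_AL, 2.23 to 3.51 in N2_DR, 10.9 to 11.1 in sek1_AL and 10.7 to 14.01 in sek1_DR, with log2 fold changes of 1.88 and 2.14. nhr-183 had 1.14 to 1.30 CPM in N2_AL, 0.557 to 1.67 in N2_DR, 3.38 to 4.59 in sek1_AL and 5.08 to 7.03 in sek1_DR, with log2 fold changes of 1.67 and 2.61. Both were without overlap by genotype on each diet. nhr-127 and nhr-213 were higher on AL by 2.63 and 1.77 and on DR by 2.50 and 2.15.

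Some of the largest ratios belonged to receptors nearly unread in N2. For nhr-218, the 3 mutant DR libraries held 52 counts and the 3 N2_DR libraries 0. Set against a floor of 3 counts over the group, nhr-218 was at least 17.3-fold higher in the mutant on DR. On AL it had 56 and 1 counts, a ratio of 41.1 with a 95% counting interval of 7.08 to 1652. For nhr-264 the DR libraries held 42 and 0 counts, at least 13.97-fold higher, and the AL libraries 46 and 2, a ratio of 16.9 (4.42 to 144). nhr-263 had 84 and 3 counts on AL, a ratio of 20.6 (6.80 to 102), and passed on DR too. nhr-267 had 37 and 3 counts on DR, a ratio of 12.3 (3.896 to 62.4). These intervals cover counting error only. nhr-218 shares 82 nt of exon with nhr-127 on the same strand, and nhr-147, also higher on both diets, shares 323 nt with nhr-149 on the opposite strand, so these counts are uncertain.

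Lower receptors were few. nhr-172 had 0.880, 1.03 and 1.03 CPM in N2_DR and 0.108, 0.0359 and 0.0539 CPM in sek1_DR. It was lower in the mutant on DR without overlap (log2 fold change −3.77 ± 0.58, edgeR adjusted p = 0.00064), and on AL it did not pass (−1.49 ± 0.53, adjusted p = 0.076). nhr-99 had 0.904, 1.54 and 2.13 CPM in N2_AL and 0.247, 0.384 and 0.0858 CPM in sek1_AL. It was lower on AL without overlap (−2.60 ± 0.57, edgeR adjusted p = 0.00857), while on DR the genotypes overlapped (−0.47 ± 0.55, adjusted p = 0.515). nhr-274 had 40.5, 36.95 and 10.4 CPM in N2_AL, 29.7 to 30.998 in N2_DR, 21.5 to 28.3 in sek1_AL and 18.6 to 19.2 in sek1_DR. Like nhr-66 it did not pass in the 12-library fit and was lower without N2_AL replicate 3, at −0.63 on AL and −0.69 on DR (edgeR adjusted p = 0.00177 and 0.000161). So did nhr-71 (−0.38) and nhr-171 (−1.06) on DR.

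Among the receptors of highest level per kilobase, nhr-2 and nhr-154 were higher in the mutant on both diets. nhr-2, known from early embryos, had 14.6, 16.9 and 10.2 CPM in N2_AL and 13.95, 14.6 and 17.2 in N2_DR. Mutant levels were 22.8, 18.3 and 27.1 CPM on AL and 26.97, 28.5 and 28.9 on DR. Genotypes did not overlap (log2 fold change 0.71 on AL, 0.89 on DR, edgeR adjusted p = 0.0381 and 0.00673). nhr-154 had 3.06 to 7.54 CPM in N2_AL, 10.7 to 13.7 in N2_DR, 12.97 to 23.98 in sek1_AL and 26.1 to 33.9 in sek1_DR. It was higher by 1.59 ± 0.32 on AL and 1.28 ± 0.31 on DR (edgeR adjusted p = 0.00502 and 0.00754), and its DR libraries were above its AL libraries in both genotypes. nhr-20 overlapped on both diets (0.10 and 0.04), and nhr-46 did not pass (0.58 and 0.24, adjusted p = 0.143 and 0.468), while without N2_AL replicate 3 it passed on DR at 0.24 (adjusted p = 0.0338).

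Further receptors with means of 10 CPM or more were higher on both diets without overlap. nhr-97 had 4.55 to 14.9 CPM in N2_AL and 28.6 to 34.9 in sek1_AL, and 11.3 to 15.3 in N2_DR and 33.2 to 38.4 in sek1_DR. nhr-1 had 6.68 to 12.5 and 21.4 to 23.6 CPM on AL and 9.15 to 9.90 and 23.1 to 26.1 CPM on DR in N2 and the mutant. The log2 fold changes were 1.55 and 1.35 for nhr-97 and 1.16 and 1.36 for nhr-1, and nhr-35 (1.32 and 1.02) and nhr-45 (1.16 and 0.93) were like them.

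By size on DR, the 84 higher receptors had a median log2 fold change of 1.30, and 83 of them had no overlap between genotypes, the exception being nhr-226. A rise of 4-fold or more was fitted for 16, with means of 0.254 to 13.97 CPM, and 12 of them were also higher on AL. These were nhr-3, nhr-43, nhr-72, nhr-85, nhr-91, nhr-123, nhr-127, nhr-147, nhr-148, nhr-183, nhr-213, nhr-218, nhr-263, nhr-264, nhr-267 and nhr-270. Another 47 were higher by 2 to 4-fold (log2 fold changes of 1.02 to 1.94, means of 0.396 to 23.1 CPM), of which 16 were also higher on AL. They were nhr-1, nhr-5, nhr-7, nhr-18, nhr-21, nhr-25, nhr-31, nhr-35, nhr-55, nhr-56, nhr-59, nhr-79, nhr-96, nhr-97, nhr-98, nhr-101, nhr-103, nhr-104, nhr-105, nhr-115, nhr-117, nhr-119, nhr-120, nhr-121, nhr-125, nhr-126, nhr-128, nhr-129, nhr-131, nhr-136, nhr-137, nhr-139, nhr-140, nhr-154, nhr-163, nhr-168, nhr-170, nhr-173, nhr-177, nhr-195, nhr-211, nhr-212, nhr-226, nhr-231, nhr-232, nhr-238 and nhr-277. The last 21 were higher by less than 2-fold (0.60 to 0.97), 8 of them also on AL. They were nhr-2, nhr-11, nhr-17, nhr-19, nhr-32, nhr-45, nhr-65, nhr-69, nhr-84, nhr-114, nhr-132, nhr-134, nhr-143, nhr-146, nhr-152, nhr-182, nhr-184, nhr-201, nhr-228, nhr-230 and nhr-243.

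On AL the 40 higher receptors had a median log2 fold change of 1.23, 26 reached 2-fold and 10 reached 4-fold, and none overlapped between genotypes. Of the 92 receptors called by genotype on either diet, 23 have exons that overlap another annotated gene, beside 53 of all 180 tested. Receptors not called with all 12 libraries but called without N2_AL replicate 3 included nhr-37, higher on AL and DR, and nhr-235, higher on AL, with means of 0.189 and 0.157 CPM.

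Receptor genes lie in clusters. In the annotation 137 of the 267 members stand in 44 runs of 2 or more receptor genes with no other annotated protein-coding gene between them, the longest with 9. Tested members inside runs were higher on DR in 49 of 92 cases and those outside in 35 of 88. Of all tested receptors 46.7% were higher on DR, and of all tested genes 24.9%. Whether members inside and outside runs differ was not tested. Of 52 neighbouring pairs in which both genes were tested, 19 had both higher on DR, 22 had 1 and 11 had neither, and whether neighbours share calls beyond the receptors' own rate was not tested. Near-identical copies can share or split reads, which makes values within runs uncertain.

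A run of 7 on chromosome V (2219004 to 2235180) holds nhr-56, nhr-128, nhr-103, nhr-18, nhr-126, nhr-134 and nhr-96, and all 7 were higher in the mutant on DR. On that chromosome 46.1% of tested receptors and 27% of all tested genes were higher on DR. The log2 fold changes of the 7 in that order were 1.42, 1.86, 1.40, 1.42, 1.37, 0.92 and 1.25. In N2_DR the 7 genes had 1.15 to 3.63 CPM and in sek1_DR 2.92 to 9.81 CPM. For each of the 7 the mutant DR libraries lay above the N2_DR libraries. On AL nhr-56, nhr-103, nhr-18 and nhr-126 were higher, by 0.80 to 1.29, and the other 3 had log2 fold changes of 0.55 to 0.71 that did not pass. Members of the run were chosen for display after their values were seen.

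**Figure D5:**
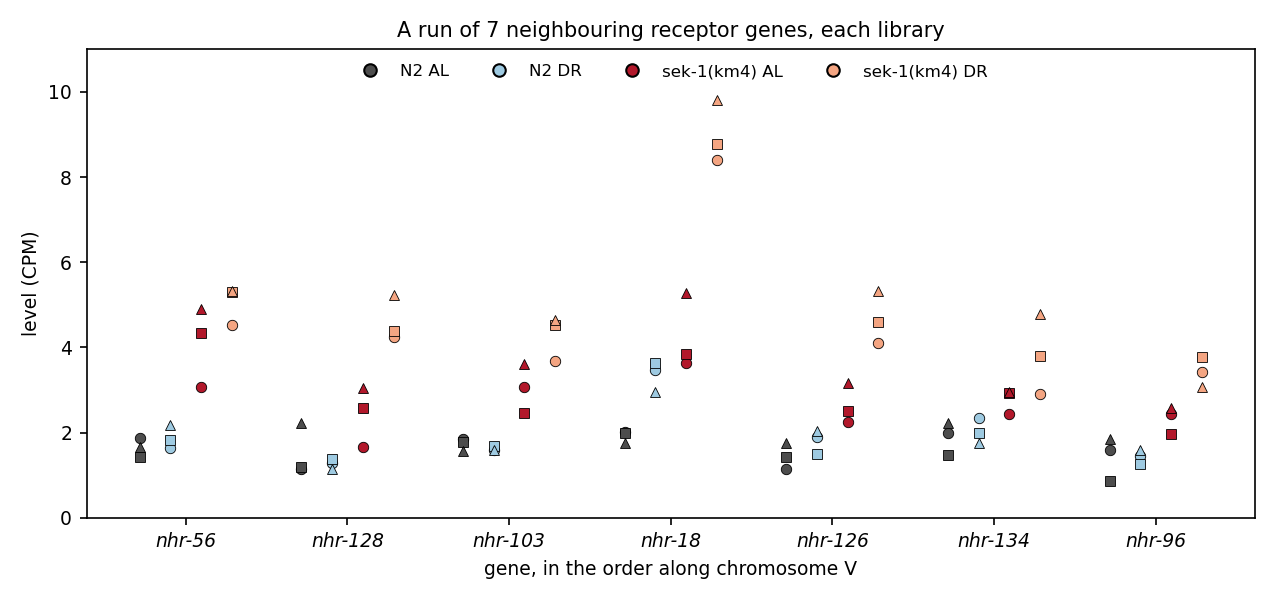
Level in CPM in each library of 7 receptor genes that are neighbours on chromosome V, in their order along it. Colours are the 4 groups and circles, squares and triangles replicates 1, 2 and 3. The mutant DR points are the highest group for each gene by its mean, and those of nhr-18 reach 8.39 to 9.81 CPM.

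Diet moved few receptors in the 12-library fit. In N2, 2 receptors were higher on DR, nhr-6 and nhr-129, and 0 were lower, where 0.363% of all genes were higher and 0.725% lower. In sek-1(km4), nhr-18 alone was higher and 0 were lower, with 0.171% and 0.281% of all genes. A fit of only the libraries compared called 0 of 154 receptors in N2 (12 at an unadjusted p under 0.05) against 0% of all genes. The same kind of fit in the mutant called 18 higher and 2 lower of 175 (7.08% and 8.32%). Without N2_AL replicate 3, 5 were higher in N2 (all genes, 1.06% higher and 1.53% lower), and in the mutant 14 were higher and 3 lower (5.92% and 9.01%). The contrasts by diet share no library. The receptors' median log2 fold change was 0.06 in N2 and 0.24 in the mutant, beside −0.06 and 0.01 for all genes.

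nhr-129 (chromosome V, 13329186 to 13331019) had 1.15, 1.43 and 1.30 CPM in N2_AL and 3.74, 2.90 and 4.14 CPM in N2_DR. In the mutant it had 3.88, 3.73 and 5.15 CPM on AL and 6.73, 7.75 and 8.73 CPM on DR. DR libraries were above AL libraries in each genotype, and mutant libraries above N2 libraries on each diet. In N2 the log2 fold change by diet was 1.48 ± 0.23 (edgeR adjusted p = 0.0146), and in the mutant 0.86 ± 0.21 (adjusted p = 0.113, and 0.0142 without N2_AL replicate 3). Its neighbour nhr-168 had 2.26, 2.51 and 4.18 CPM in N2_AL, 4.62 to 5.24 in N2_DR, 5.11 to 6.44 in sek1_AL and 9.22 to 11.4 in sek1_DR. It too had no overlap by diet, and passed in both genotypes without N2_AL replicate 3, though in neither with all 12 libraries (log2 fold changes 1.08 and 0.87, adjusted p = 0.00953 and 0.00561).

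nhr-18 had 2.02, 2.00 and 1.76 CPM in N2_AL and 3.48, 3.63 and 2.94 CPM in N2_DR. Mutant levels were 3.63, 3.84 and 5.28 CPM on AL and 8.39, 8.79 and 9.81 CPM on DR. Diet groups did not overlap in either genotype. The log2 fold change by diet was 1.08 ± 0.19 in the mutant (edgeR adjusted p = 0.0352) and 0.79 ± 0.20 in N2 (adjusted p = 0.101). The diet call in the mutant did not hold in every fit with 1 library left out. The receptors that were higher on DR in the mutant without N2_AL replicate 3, but not with all 12 libraries, were nhr-21, nhr-35, nhr-45, nhr-84, nhr-91, nhr-117, nhr-126, nhr-128, nhr-129, nhr-154, nhr-168, nhr-193 and nhr-228, and those lower were nhr-66, nhr-86 and nhr-274. Their log2 fold changes there ran from 0.55 to 1.47 and from −0.47 to −0.42, and all but nhr-66 were also called in the fit of only the mutant libraries. In N2 nhr-67, nhr-150 and nhr-168 were added to nhr-6 and nhr-129. nhr-38, named after its values were seen, had 126 counts in N2_AL replicate 3 and at most 15 in any other library, and its log2 fold change by diet in N2 went from −4.10 to 1.00 without that library, with neither called.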

How the data were processed

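Reads of 50 bp were sequenced from poly(A) libraries of 12 samples. The table deposited by the authors holds whole-number counts for each gene in each library, without normalization. The submitters' processing notes name Subread and its featureCounts as the tools. Their versions, the aligner, the build, the annotation and the strand setting were not stated in the sources used here. Symbols came from a WormBase name table, and positions and exon lengths from the Ensembl 115 annotation of WBcel235. Tests used the quasi-likelihood method of edgeR 4.0.16 under R 4.3.3 (TMM, filterByExpr with a minimum count of 10, robust quasi-likelihood fit, a mean per group over 12 libraries, Benjamini-Hochberg over 14611 genes, threshold 0.05). The code was tested on simulated data. CPM values are TMM-scaled. SE is the absolute log2 fold change over the square root of F. Alternatives used limma 3.58.1 and DESeq2 1.42.0. The members and lists were chosen with earlier results of these data known. Receptors named were those called in a contrast, the 8 largest each way without N2_AL replicate 3, members of the role lists and the 10 of highest level per kb. Those without values of their own are given by their range.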

Additional observations from a re-analysis of the deposited data

How the results depend on the processing

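In N2, DR called 2 receptors. RLE size factors and leaving out ribosomal RNA rows gave 1, exon length offsets 3, DESeq2 7, the libraries of the contrast alone 0 and limma voom with sample weights 12 (6.67% of receptors beside 7.17% of all genes), and leaving out 1 library gave 1 to 5. In sek-1(km4) diet called 1, and DESeq2 gave 9 (5% beside 4.56%), no filter 0, length offsets 2, the libraries of the contrast alone 20 (11.4% beside 15.4%), voom 60 (33.3% beside 43.2%) and leaving out 1 library 0 to 17 (the 17, without N2_AL replicate 3, are 9.24% beside 14.9%). For genotype on AL, 42 calls became 17 with the libraries of the contrast alone (10.2% beside 8.83%), 88 with voom (48.9% beside 47.7%) and 28 to 67 with 1 library left out. The 28 are of 185 receptors, where 1256 of 15174 genes were higher and 275 lower, and the 67 are 36.4% beside 38.8%. On DR, 87 became 135 with voom (75% beside 74.6%) and 60 to 115 with 1 library left out. The 60 are of 184 receptors, where 2463 of 15226 genes were higher and 1527 lower, and the 115 are 62.5% beside 64.5%. These shares take both directions together. Under voom 46.1% of receptors were higher on AL and 69.4% on DR, beside 28.2% and 42.4% of all genes. The interaction stayed at 0 in each, leave-one-out included, except voom, which called 15 (8.33% beside 9.4%). With the replicate number as a block the 5 counts were 2, 3, 46, 95 and 0. In the same order, the genes higher and lower among all 14611 were 84 and 162, 71 and 112, 2181 and 865, 4104 and 2547, and 0 and 1. For a check of the replicate numbers, each gene's group mean was taken off the log2 CPM and the remaining deviations were correlated. Of 18 same-numbered pairs of libraries, 13 had deviations that correlated over 0.1 (r from −0.07 to 0.39). The deviations of 8 of 12 libraries had their highest mean r with their own number. The labels do not say that equal numbers share a day or batch, so the main fit used no block. Whether same-numbered libraries share a batch was not tested. Of the AL and DR genotype calls, 25 of 42 and 46 of 87 were kept whichever library was left out, and 17 and 44 under all settings. Of the diet calls, 1 of 2 in N2 (nhr-129) and 0 of 1 in the mutant were kept whichever library was left out. Under all settings 0 of the diet calls were kept in either genotype. Exon length offsets moved the median of all genes from 0.02 to −0.11 on AL and from 0.17 to −0.04 on DR. The receptor medians under them were 0.30 and 0.55, and the split of all genes on DR went from 3631 higher and 2136 lower to 3386 and 4541. Kept calls were counted by the threshold alone, and whether each called receptor held its sign in every setting was not tested. Depth limits the receptors under 1 CPM most, where 3 counts are 0.0947 to 0.219 CPM of a library.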
